A study of Mus musculus with 6 samples.

Results

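Esrp1, Esrp2, Rbm47 and Rbfox2 encode RNA-binding proteins that set splice site choice in epithelial cells, and their mRNA was measured by RNA sequencing in 393P cells with or without ectopic ZEB1. They were chosen by symbol, as 4 of the 24214 RefSeq features in the tables of read counts, and all 4 passed the filter on low counts that left 13892 genes for testing. 393P is an epithelial murine lung adenocarcinoma (LUAD) cell line from C57BL/6 mice, grown in RPMI-1640 with serum. One derivative was transfected with a ZEB1 expression vector (393P_ZEB1) and the other with the empty vector (393P_vector), and total RNA of 3 samples per condition was read with SOLiD sequencing. Transfectants in the study were stable and drug-selected, so each condition may be 1 selected population, and the labels do not say whether its 3 samples came from separate transfections. The p-values therefore rest on the spread between these samples, which may be technical.

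ZEB1 is a transcriptional repressor that binds E-boxes in the promoters of epithelial genes and drives epithelial-to-mesenchymal transition (EMT). During EMT many transcripts keep their gene but change their exons. ESRP1 and ESRP2 are epithelial-specific paralogs that bind GU-rich intronic sequence and hold transcripts such as Fgfr2, Cd44, Ctnnd1 and Enah in their epithelial exon patterns. RBM47 is an RNA-binding protein with roles in splicing, mRNA stability and RNA editing and is also enriched in epithelia. RBFOX2 binds the motif UGCAUG, is expressed in both epithelial and mesenchymal cells, and promotes many mesenchymal exons. The counts are per gene, so they show how much mRNA of each regulator was present but not which exons of its targets were used.

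Esrp1 and Esrp2 are similar enough in sequence that shared reads had to be considered first. In GENCODE M21 transcripts matched to the RefSeq accessions of the tables, their coding sequences were 2043 and 2151 bases long and identical at 66.5% of 2003 aligned positions, with no identical run above 35 bases. The 60 aligned coding bases in which they were most alike are shown because this is where a short read could most easily be misassigned, with capitals for identical bases and lower case for the 7 that differ (Esrp1 coding positions 1776 to 1835, Esrp2 coding positions 1854 to 1913, both 5′ to 3′ on the transcript).
Esrp1: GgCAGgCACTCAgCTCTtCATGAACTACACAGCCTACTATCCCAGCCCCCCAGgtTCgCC
Esrp2: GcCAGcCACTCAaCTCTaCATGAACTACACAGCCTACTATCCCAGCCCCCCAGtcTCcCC
Of the stretches of 50 bases in each of the 4 regulator transcripts, 0 occurred in a transcript of any other gene. Counts of the paralogs were therefore treated as separate measurements. The check covers exact matches of 50 bases only, and shorter reads or reads aligned with mismatches were not tested.

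Libraries held between 57844355 and 79158012 counts for 393P_vector and between 54442450 and 61251074 for 393P_ZEB1. A floor of 3 counts was used for detection, which is 0.0379 to 0.0551 CPM depending on the library (CPM, counts scaled to the total of the library). Levels below are CPM on library sizes normalized by edgeR's TMM method, and tests are edgeR's quasi-likelihood test with Benjamini-Hochberg adjustment over all 13892 genes and a threshold of 0.05. Zeb1 was higher in 393P_ZEB1 samples, at 54.9, 48.9 and 51.3 CPM against 21.2, 22.01 and 21.4 CPM (log2 fold change 1.26, SE 0.10, adjusted p = 6.06e-05), and these counts may include reads from the transfected ZEB1. Zeb1 lies on chromosome 18, where the median log2 fold change of 396 tested genes was 0.64. Of these 64.4% were higher past the threshold, against 18.3% of all tested genes. All 8 tested genes within 1 Mb of Zeb1 were higher past the threshold (median 0.89). The part of that shift in the Zeb1 value was not tested. 393P_vector replicate 3 stood apart from its group. After 0.5 CPM was added, it differed at least 2-fold from replicates 1 and 2 in 5.0% and 5.51% of tested genes, against at most 0.18% for every other pair within a condition. Epithelial markers were abundant in 393P_vector cells, but of 7 markers of differentiated lung epithelium (Nkx2-1, Sftpa1, Sftpb, Sftpc, Scgb1a1, Napsa and Hopx) 0 passed the filter, and their summed level was at most 0.252 CPM in any sample.

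The 4 regulators followed different courses in 393P_ZEB1 cells. Esrp1 was almost lost, Esrp2 was reduced 2.55-fold, Rbfox2 was slightly lower and Rbm47 was slightly higher. All 4 passed the threshold, 3 lower and 1 higher, where 37.6% of all tested genes did, 19.3% lower and 18.3% higher. For all 4 the 3 393P_ZEB1 samples lay entirely on one side of the 3 393P_vector samples, as they did for 52.8% of tested genes (26.5% lower and 26.3% higher), and the exact permutation p was 0.1 for each, the smallest that 3 samples against 3 allow. The changes of Esrp1 and Esrp2 held in all 15 alternative settings tried for each. Those of Rbm47 and Rbfox2 were near the threshold and were lost in 10 and 9 of their 15. These settings include a test against a fold change of 1.5 and an adjusted p threshold of 0.01. Both reuse the reported estimates, so for Rbm47 and Rbfox2 the call could only be lost there.

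**Figure D1:**
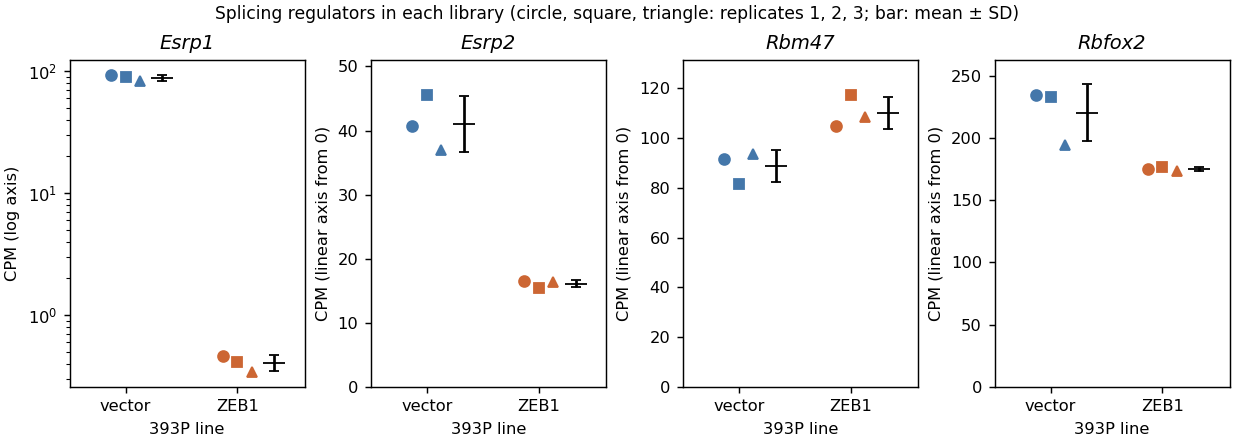
TMM-normalized CPM of each regulator in the 6 libraries, with Esrp1 on a log axis and the others on linear axes that start at 0. Points are libraries (circle, square and triangle for replicates 1, 2 and 3) and bars are the mean ± SD of 3. Esrp1 drops from 83.1 to 92.5 CPM to between 0.344 and 0.467 CPM, while the other 3 stay within the same order of magnitude.

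Esrp1 (chromosome 4 from 11332038 to 11386783, minus strand, GRCm38) showed the largest change. The 393P_vector samples held 5235, 5204 and 6901 reads on it (replicates 1, 2 and 3, the order used throughout), and the 393P_ZEB1 samples held 25, 23 and 21. These correspond to 92.5, 88.5 and 83.1 CPM and to 0.467, 0.414 and 0.344 CPM. The groups were far apart and each was tight, with means of 88.0 ± 4.72 and 0.408 ± 0.0618 CPM (SD, n = 3), so that 0.464% of the control level remained, a level 215-fold lower. The log2 fold change was -7.75 (SE 0.17, adjusted p = 2.64e-07 from edgeR), the 18th largest decrease among the 13892 genes. The remaining signal lay above the detection floor, and whether it held misassigned Esrp2 reads was not tested. The count of 25 has an exact 95% Poisson interval of 16.2 to 36.9, and that of 23 one of 14.6 to 34.5, covering counting error only. In the authors' exon tally, 16 of 16 Esrp1 exons had more than 10 reads in each 393P_vector sample and 0 of 16 in each 393P_ZEB1 sample, where the whole gene held at most 25 reads. With each sample left out in turn, the log2 fold change stayed between -7.85 and -7.63.

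Esrp2 (chromosome 8 from 106131183 to 106136974, minus strand), the paralog with overlapping targets, was also lower but remained expressed. The controls held 2303, 2679 and 3066 reads on it, and the 393P_ZEB1 samples 886, 860 and 994. The corresponding levels were 40.7, 45.5 and 36.9 CPM against 16.6, 15.5 and 16.3 CPM, so every 393P_ZEB1 sample lay below every control and the controls were the more variable group. On average 39.2% of the control level remained (log2 fold change -1.35, SE 0.12, adjusted p = 9.85e-05 from edgeR). Between 13 and 15 of the 15 exons had more than 10 reads in all 6 samples. The 5′ end of Esrp2 overlaps over 1575 bases with the noncoding feature 1810019D21Rik on the opposite strand, and whether counting used the strand is not given in the sources used here. That feature held between 14 and 85 counts per sample, between 1.58% and 3.26% of the Esrp2 count, and was itself lower in 393P_ZEB1 cells (log2 fold change -1.33, SE 0.29, adjusted p = 0.00892 from edgeR). Its part in the Esrp2 counts was not tested.

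The paralogs differed in the size of their decrease. The ratio of Esrp1 to Esrp2, each per kilobase of exon, was 1.57, 1.34 and 1.55 in 393P_vector samples and 0.0199, 0.0189 and 0.0149 in 393P_ZEB1 samples. Esrp1 was thus the more abundant paralog in the controls and the minor one in 393P_ZEB1 cells. On the log2 scale the ratio changed by -6.39, with group SDs of 0.127 and 0.219 (exact permutation p = 0.1, the smallest possible, and 0.1 after adjustment over 4 ratios among the regulators). A ratio within a sample does not depend on the library size, and leaving out any sample kept the change between -6.47 and -6.26. Esrp1 and Esrp2 together fell from 38.3 ± 2.49 to 6.17 ± 0.214 CPM per kilobase (SD, n = 3), and the share of Esrp1 in that sum from 59.7% ± 2.13 to 1.72% ± 0.25 (SD, n = 3).

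Rbm47 (chromosome 5 from 66016557 to 66151924, minus strand) did not follow the ESRP genes. Reads on it numbered 5183, 4787 and 7778 in the controls, compared with 5612, 6517 and 6618 in 393P_ZEB1 samples. Scaled to the libraries, the levels were 91.6, 81.4 and 93.6 CPM against 105, 117 and 108 CPM, so the groups were adjacent without overlapping and the 393P_ZEB1 samples were the higher ones. The mean in 393P_ZEB1 cells was 124% of that in 393P_vector cells (log2 fold change 0.31, SE 0.10, adjusted p = 0.0487 from edgeR). In all 6 samples 8 of the 10 exons had more than 10 reads. The call did not hold when any sample other than 393P_vector replicate 3 was left out (adjusted p between 0.0782 and 0.17 from edgeR), and without that replicate the change was 0.35 (adjusted p = 0.00647 from edgeR). No setting gave a decrease of Rbm47, and the log2 fold change ranged from 0.26 to 0.35.

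A RefSeq promoter window (GRCm38.p6, 250 bases before to 50 after a start) was found for 1 of the 4 regulators, Rbm47, which has 3 such windows. They were searched on both strands for CACCTG, the E-box that ZEB1 binds, and for its 5-base core CACCT, which is contained in the longer motif. On either strand, CACCTG was present in 20.2% of all 32851 windows and in 0 of the 3 of Rbm47, and the core in 51.9% of all and in 1 of the 3. That match, in capitals in the 40 bases at chr5:66098390-66098429 (minus strand, written 5′ to 3′), lies 246 bases before an internal start of Rbm47 and is shown as the one match in the windows searched.
Rbm47: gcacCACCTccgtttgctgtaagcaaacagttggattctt

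Rbfox2 (chromosome 15 from 77078990 to 77307053, minus strand) was slightly lower in 393P_ZEB1 cells. It had 13278, 13696 and 16139 reads in the controls, and 9379, 9803 and 10597 in 393P_ZEB1 samples. The levels were 235, 233 and 194 CPM against 175, 176 and 174 CPM. The 393P_ZEB1 samples were nearly equal, and among the controls replicate 3 was closest to them. The mean in 393P_ZEB1 cells was 79.4% of the control mean (log2 fold change -0.33, SE 0.11, adjusted p = 0.0432 from edgeR), and 16 of 17 exons had more than 10 reads in all 6 samples. As for Rbm47, the call was lost when any sample other than 393P_vector replicate 3 was left out (adjusted p between 0.116 and 0.154 from edgeR), and without that replicate the change was -0.42 (adjusted p = 0.000558 from edgeR). The direction held in each of the 15 settings. The test against a fold change of 1.5 and the threshold of 0.01 reuse the reported estimate, so its direction could not change there.

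The order of the 4 genes by level per kilobase changed with the loss of Esrp1. Exon lengths were those of the counted features, 5358 bases for Rbm47, 7342 for Rbfox2, 3848 for Esrp1 and 2657 for Esrp2. The matched transcripts were 3180, 6907, 3864 and 3536 bases long in the same order. Ranks between genes, above all those of Rbm47, depend on the length used, and the order with transcript lengths was not tested. In CPM per kilobase of exon, Rbfox2 was highest in 393P_vector cells at 30.0 ± 3.1 (SD, n = 3), followed by Esrp1 at 22.9 ± 1.23, Rbm47 at 16.6 ± 1.23 and Esrp2 at 15.4 ± 1.63. The values of Rbm47, 17.1, 15.2 and 17.5, overlapped those of Esrp2, 15.3, 17.1 and 13.9, so these 2 neighbours did not differ beyond their spread, and the other neighbours did not overlap. In 393P_ZEB1 cells Rbfox2 remained first at 23.9 ± 0.198, with Rbm47 next at 20.6 ± 1.2, Esrp2 at 6.06 ± 0.211 and Esrp1 last at 0.106 ± 0.0161 (SD, n = 3), with no overlap between neighbours. Summed over both paralogs, the ESRP level per kilobase was 1.28 ± 0.0559 times that of Rbfox2 in 393P_vector cells and 0.259 ± 0.0103 times that of Rbfox2 in 393P_ZEB1 cells (SD, n = 3). Among all tested genes ranked by this level, Esrp1 moved from percentile 73.0 to percentile 8.47, Esrp2 from 63.2 to 42.5, Rbfox2 from 79.3 to 74.1 and Rbm47 from 65.0 to 70.4.

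**Figure D2:**
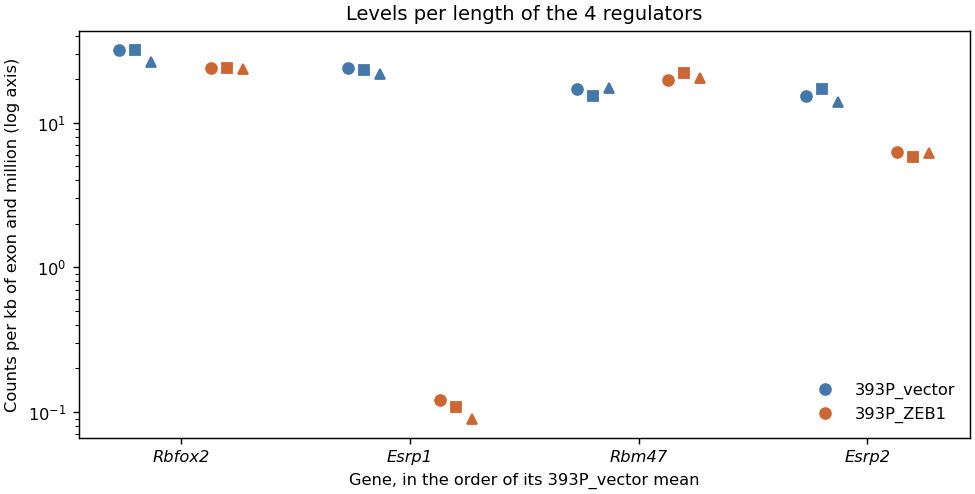
Level of each regulator in CPM per kilobase of exon, on a log axis, in the 3 libraries of each condition (circle, square and triangle for replicates 1, 2 and 3), ordered by the 393P_vector mean. In 393P_vector cells all 4 genes lie between 13.9 and 32.0, and in 393P_ZEB1 cells Esrp1 is at 0.0894 to 0.121 while Rbfox2 and Rbm47 are at 19.6 or above.

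Because genes of some chromosomes were shifted as a whole in 393P_ZEB1 cells, each regulator was set beside the other tested genes of its chromosome. Chromosome 15, which carries Rbfox2, was shifted down. Its 574 tested genes had a median log2 fold change of -0.33, against -0.01 for genes elsewhere, and 37.3% of them were lower and 12.2% higher past the threshold. Rbfox2, at -0.33, lay at percentile 50.3 of its chromosome and differed from the chromosome's median by 0.0015. Chromosome 15 features took 5.47%, 5.67% and 5.26% of all counts in the controls, compared with 4.35%, 4.37% and 4.45% in 393P_ZEB1 samples. Within 1 Mb on either side of Rbfox2, 25 of 52 tested genes were lower past the threshold and 0 were higher. The part of this shift in the Rbfox2 value was not tested. The chromosomes of the other 3 regulators had medians of 0.03 (chromosome 4), -0.05 (chromosome 8) and 0.07 (chromosome 5), and relative to these Esrp1 stood at -7.78, Esrp2 at -1.30 and Rbm47 at 0.24 on the log2 scale.

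**Figure D3:**
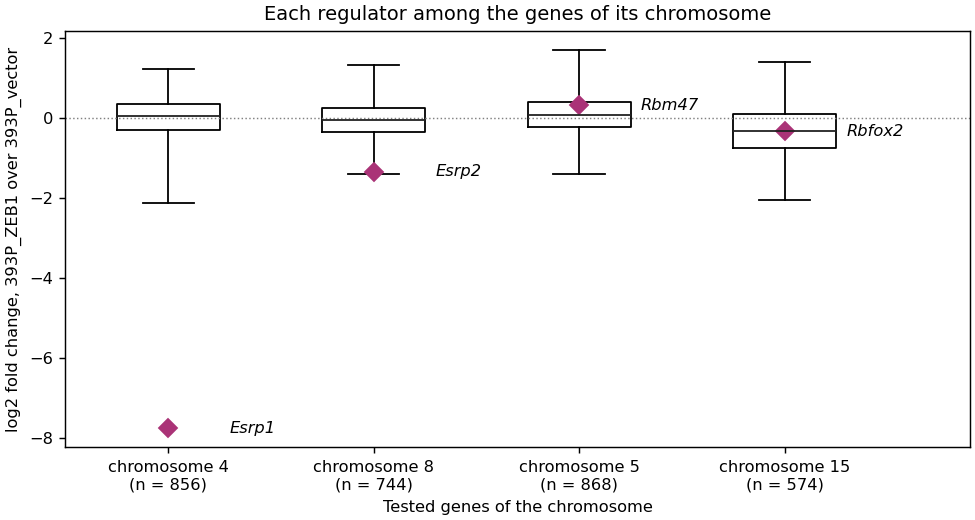
Log2 fold changes of all tested genes on the chromosome of each regulator (box, quartiles with the median; whiskers, percentiles 5 and 95) with the regulator as a diamond. Rbfox2 sits on the median of chromosome 15, at -0.33, Rbm47 lies inside the box of chromosome 5, and Esrp1 lies far below the whiskers of chromosome 4, at percentile 0.467.

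The nearest features on either side of Esrp1 and Esrp2 that do not overlap them did not pass the threshold, unlike 1810019D21Rik, which overlaps Esrp2. Dpy19l4, whose feature ends 9906 bases from Esrp1, had 46.7 CPM in 393P_vector and 52.1 CPM in 393P_ZEB1 cells (log2 fold change 0.16, SE 0.12, adjusted p = 0.34 from edgeR), and 1110037F02Rik on the other side changed by 0.18 (SE 0.10, adjusted p = 0.212 from edgeR). Of the 18 tested genes within 1 Mb of Esrp1, 0 were lower past the threshold and 4 were higher. Nfatc3, which ends 645 bases from Esrp2, had a log2 fold change of -0.07 (SE 0.17, adjusted p = 0.766 from edgeR), and Pla2g15 on the other side of Esrp2 one of -0.30 (SE 0.13, adjusted p = 0.11 from edgeR), with every 393P_ZEB1 sample below every control. Within 1 Mb of Esrp2, 8 of 63 tested genes were lower and 8 higher, and log2 fold changes ranged from -5.23 (Tppp3) to 1.81. Over all tested genes, 19.3% were lower and 18.3% higher past the threshold. The features next to Rbm47 (9130230L23Rik and 1700126H18Rik) and Rbfox2 (Apol6 and Apol7a) were at or below 0.394 CPM on average in both conditions.

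Genes with the most similar profiles over the 6 samples were found by the Euclidean distance between log2 CPM values centred on each gene's mean, with a prior count of 2 in edgeR's log2 CPM, among 10425 genes with a group mean of at least 5 CPM. For Esrp1 these were Cntfr (distance 0.328), a cytokine receptor subunit, Arhgef16 (0.542), a guanine nucleotide exchange factor, and Cdcp1 (0.595), a transmembrane protein. Cntfr had 2 counts in each 393P_ZEB1 sample, below the floor, and its place rests on the prior count. Without it, in an alternative chosen after seeing the data, the distances of Cntfr, Arhgef16 and Cdcp1 were 1.21, 0.516 and 0.637. Cdcp1 closely matched Esrp1 in level as well, with 97.5, 101 and 82.1 CPM in 393P_vector and 0.318, 0.324 and 0.344 CPM in 393P_ZEB1 samples. The nearest profiles to Esrp2 were those of the circadian repressor Cry1 (0.124), the glycolytic enzyme gene Pfkl (0.173) and Syt17 (0.197). Those nearest to Rbm47 were Wdr48 (0.0941), Spred2 (0.0961) and 2310022B05Rik (0.101), and those nearest to Rbfox2 were Pcyox1 (0.0463), Fam160a1 (0.0739) and Irak1 (0.0768). Cntfr and Arhgef16 lie on chromosome 4 like Esrp1, and the other 10 genes named lie on other chromosomes than their regulator. For Rbm47 and Rbfox2 the changes were small as well as the distances, and the part of the one in the other was not tested. The points share library and depth, and likeness over 6 samples in 2 conditions is a description.

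Compared with markers of the epithelial state, Esrp1 was among the strongly reduced genes and the other regulators were not. Of all tested genes, 19.3% were lower and 18.3% higher past the threshold. Of 20 epithelial markers, all tested, 19 were lower and 0 higher, with a median log2 fold change of -4.77 against -0.02 for all tested genes. Those with the largest decreases were Krt7, a simple-epithelial keratin (log2 fold change -8.51, SE 0.20, adjusted p = 3.71e-07 from edgeR), Cldn4, a tight junction claudin (-8.40), and Rab25, an epithelial Rab GTPase (-8.01). Only these 3 and St14 of the 20 had a lower log2 fold change than Esrp1, whereas 17 had a lower one than Esrp2 and all 20 a lower one than Rbm47 and Rbfox2. Of 15 mesenchymal markers, 14 were tested, 8 were higher and 2 lower, with a median of 0.49, and the largest increases were in Twist2 (5.45), Cdh2, which encodes N-cadherin (2.04), and Tgfb1i1 (2.01). The 2 lower ones were Fgfr1 (-0.93) and Itga5 (-0.59), named after their values were seen. Markers of other cell types were low, and 3, 4 and 2 of those for fibroblasts, leukocytes and endothelium passed the filter. The summed CPM of 5 fibroblast markers was at most 2.91, of 6 leukocyte markers at most 4.94 and of 4 endothelial markers at most 2.46 in any sample, with 1 gene lower past the threshold in each list (Pdgfra, Csf1r and Kdr) and 0 higher. These sums were lower in 393P_ZEB1 samples, at most 1.10, 2.13 and 0.868 CPM, and their part in the results was not tested. In bulk samples fewer cells that express a gene and less RNA per cell cannot be told apart.

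Paralogs of Rbfox2 and Rbm47 were close to undetected in both conditions. Rbfox1 was counted between 8 and 16 times per sample (log2 fold change -0.07, SE 0.33, adjusted p = 0.888 from edgeR). Rbfox3 was counted between 6 and 10 times and A1cf, the closest relative of Rbm47 and a cofactor of APOBEC1 editing, between 2 and 7 times, and neither passed the filter. Among other relatives of Rbm47, Hnrnpr rose from 53.5 ± 3.77 to 80.6 ± 3.58 CPM (SD, n = 3; log2 fold change 0.59, SE 0.10, adjusted p = 0.00322 from edgeR) and Syncrip had a value of -0.04 (adjusted p = 0.878 from edgeR).

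Beyond the 4 regulators, 85 other genes that control splicing were listed by family, and 75 of them passed the filter. Past the threshold, 8 were higher and 9 lower, or 22.7% of those tested against 37.6% of all tested genes, and the median log2 fold change was -0.01. This count moved with single libraries, to 28 without 393P_vector replicate 3 and to 10 without 393P_ZEB1 replicate 1 or 3, and the share of all genes called moved with it, to 53.0%, 26.2% and 25.7%. A change of at least 2-fold was called in 6 of the 75, against 17.1% of all tested genes. Few general factors were called. Of the 19 hnRNP and PCBP genes, abundant RNA-packaging and splicing proteins, 1 was higher (Hnrnph1, 0.30) and 1 lower (Pcbp1, -0.91). Pcbp1 was near the threshold (SE 0.30, adjusted p = 0.0457 from edgeR). It was at 35.8, 44.5 and 82.7 CPM in 393P_vector and 25.3, 29.0 and 32.6 CPM in 393P_ZEB1 samples, with 393P_vector replicate 3 the highest. Of 12 tested SR protein and TRA2 genes, which act at exonic enhancers, Srsf4 alone was called (-0.57). Ptbp1, which encodes a repressor of many exons, had 499 ± 21.2 and 477 ± 28.7 CPM (SD, n = 3; log2 fold change -0.06, SE 0.10, adjusted p = 0.65 from edgeR; chosen after its values were seen).

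Called changes of at least 2-fold included 1 gene each in the muscleblind, CELF, STAR and PTB families. Mbnl3, a muscleblind protein, was at 58.5, 43.8 and 67.1 CPM in 393P_vector and 27.0, 22.1 and 21.5 CPM in 393P_ZEB1 samples (log2 fold change -1.26, SE 0.18, adjusted p = 0.00121 from edgeR). In the CELF family Celf4 rose by 1.30 (SE 0.24, adjusted p = 0.00411 from edgeR), and Celf2 fell by 0.67 on the log2 scale (adjusted p = 0.0159 from edgeR). Khdrbs3, a STAR-family splicing factor, was at 37.3, 35.2 and 46.6 CPM against 86.3, 87.3 and 82.1 CPM, with all 393P_ZEB1 samples above the controls (log2 fold change 1.10, SE 0.13, adjusted p = 0.000457 from edgeR), although it lies on chromosome 15 like Rbfox2. Raver2, which encodes a partner of PTB, rose from 0.177 ± 0.0659 to 7.1 ± 0.773 CPM (SD, n = 3; log2 fold change 5.27, adjusted p = 6.23e-06 from edgeR), and Matr3, a nuclear matrix RNA-binding protein, rose by 0.77 (adjusted p = 0.000591 from edgeR), while Raver1 fell by 0.32 (adjusted p = 0.0264 from edgeR). Celf4 and Matr3 lie on chromosome 18, like Zeb1, and the part of that chromosome's shift in their values was not tested. Rbm38, U2af1 and Srrm2, among the remaining regulators, fell by 0.89, 0.77 and 0.63 (adjusted p = 0.0145, 0.00584 and 0.00448 from edgeR). Quaking (Qk), which promotes mesenchymal exons, was at 416 ± 73.5 and 301 ± 38.4 CPM (SD, n = 3) and did not pass (log2 fold change -0.47, adjusted p = 0.0536 from edgeR; chosen after its values were seen).

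**Figure D4:**
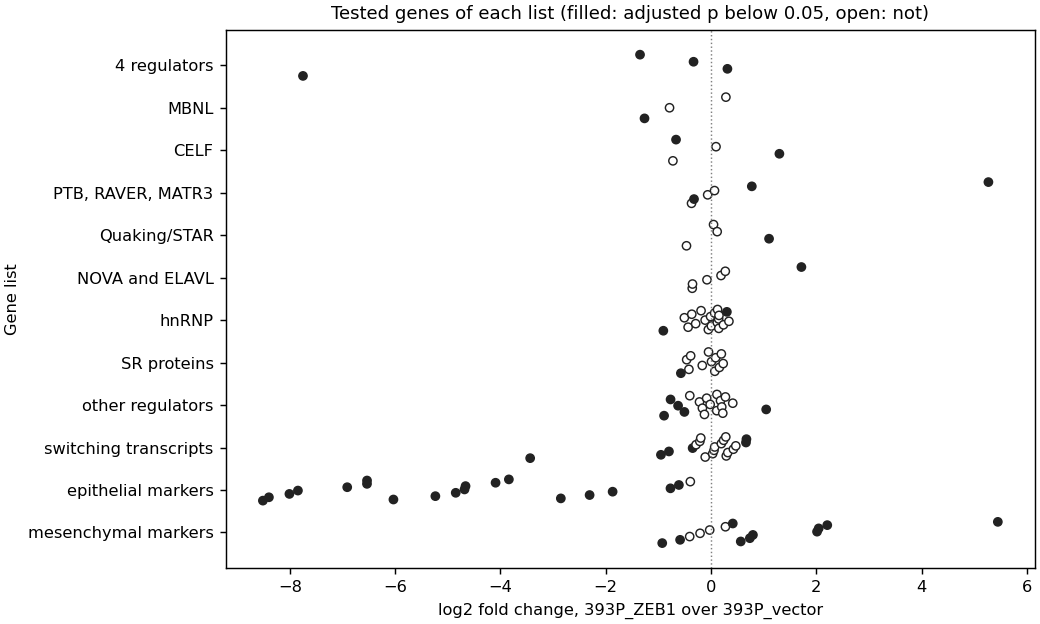
Log2 fold change, 393P_ZEB1 over 393P_vector, of each tested gene in 12 lists, filled where the edgeR adjusted p is below 0.05. Esrp1 lies at -7.75 with the epithelial markers (median -4.77), the hnRNP and SR protein genes lie within 1 unit of 0, and the most distant point on the right among the splicing regulators is Raver2 at 5.27.

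Transcripts whose exons are known to switch between epithelial and mesenchymal forms were examined at the level of the gene. Of 20 such genes, all tested, 4 were lower and 2 higher past the threshold, 30.0% against 37.6% of all tested genes, with a median log2 fold change of 0.06. The groups did not overlap for 13 of the 20, against 52.8% of all tested genes. Without 393P_vector replicate 3 the number called was also 13, and 53.0% of all genes tested were called in that setting, so the list stood below the share of all genes in one setting and above it in the other. Fgfr2, the receptor whose exons IIIb and IIIc are the classical ESRP-regulated pair, was the exception in size. It was at 2.88, 2.33 and 2.65 CPM in 393P_vector and 0.15, 0.306 and 0.262 CPM in 393P_ZEB1 samples (log2 fold change -3.44, SE 0.28, adjusted p = 6.1e-05 from edgeR), so both forms together were rare in 393P_ZEB1 cells. Cd44, the hyaluronan receptor, was abundant in both conditions, at 1175, 1049 and 1648 CPM against 1638, 1525 and 1404 CPM, and the groups overlapped (log2 fold change 0.24, SE 0.18, adjusted p = 0.33 from edgeR). Ctnnd1, which encodes p120-catenin, fell by 0.35 (SE 0.11, adjusted p = 0.0436 from edgeR), and Enah, the actin regulator Mena, had a value of 0.29 (SE 0.11, adjusted p = 0.0718 from edgeR). The junctional scaffold gene Magi1 fell by 0.80 (adjusted p = 0.00174 from edgeR). Itga6, an integrin subunit chosen after its values were seen, rose by 0.66 (adjusted p = 0.00226 from edgeR). Exoc7, of the exocyst, rose by 0.67 and was near the threshold (SE 0.22, adjusted p = 0.0486 from edgeR). It was at 42.8, 45.6 and 24.4 CPM in 393P_vector and 63.5, 58.9 and 57.2 CPM in 393P_ZEB1 samples, with 393P_vector replicate 3 the lowest. Exon use within these transcripts was not analysed here.

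**Figure D5:**
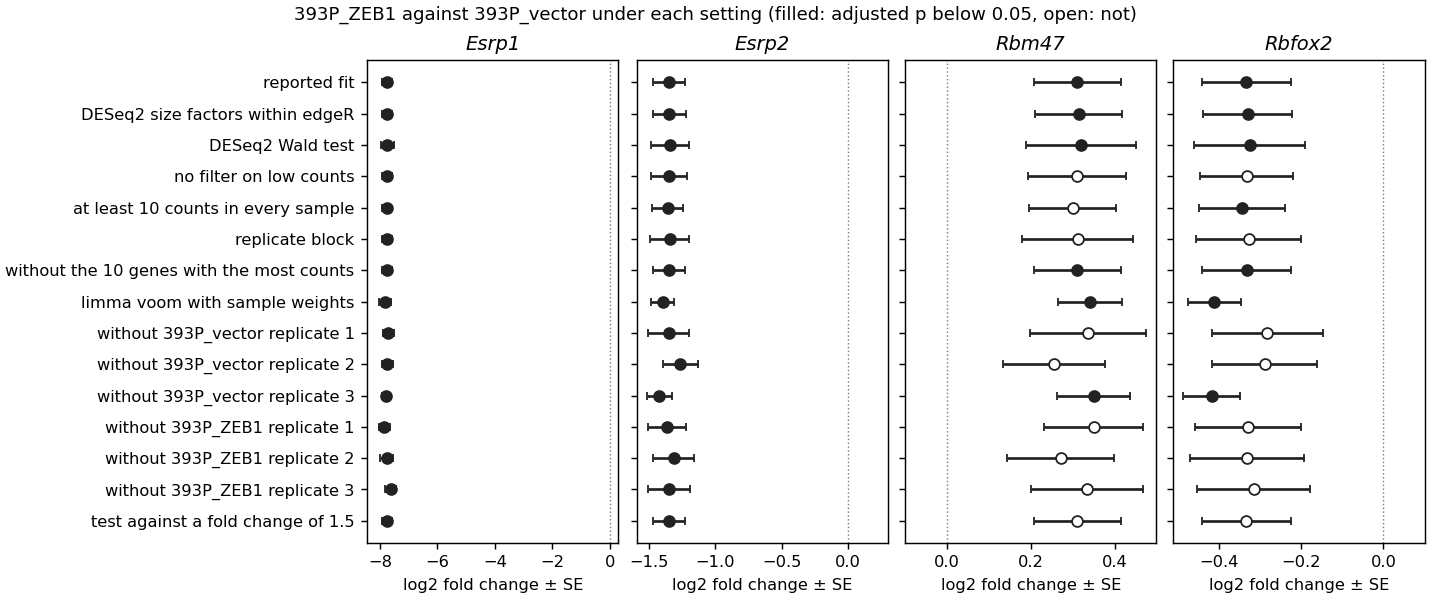
Log2 fold change ± SE of each regulator in the reported fit and under 14 alternative settings, filled where the adjusted p is below 0.05. Esrp1 and Esrp2 are filled throughout, and Rbm47 (0.26 to 0.35) and Rbfox2 (-0.42 to -0.28) keep their direction but are open in most settings.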

How the data were processed

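Total RNA of 393P_vector and 393P_ZEB1 cells was sequenced on the SOLiD platform, 3 samples each. Per sample, the authors deposited raw counts of reads per RefSeq feature (24214 features, GRCm38 coordinates). A deposited count of exons with more than 10 reads was used for the regulators. The deposited RPKM (counts scaled to exon length and library) served only as a check and implied between 99.1% and 99.3% of the summed counts. Aligner, counting program and strand setting are not given in the sources used here.

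The conditions were compared with edgeR 4.0.16 under R 4.3.3 (filterByExpr, minimum count of 10, TMM, robust quasi-likelihood fit, no replicate block) on all 6 samples. Alternatives included DESeq2 1.42.0 and limma 3.58.1 (voom with sample weights). Single values used exact permutation tests. Levels per length are TMM-normalized CPM per kilobase of exon, and ratios used counts with 0.5 added. Python 3.11.15, SciPy 1.17.1 and Biopython 1.88 were used. The tests were also run on simulated data in which 200 genes changed and no sample stood apart. In the data 5218 of 13892 genes were called and 393P_vector replicate 3 stood apart. The simulations therefore do not show how the tests perform on these data.

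The genes and lists were chosen with earlier results of these data known. Named genes were the regulators, their paralogs, Zeb1, Fgfr2, Cd44, Ctnnd1 and Enah, up to 3 called genes per list with the largest change and a group mean of at least 5 CPM, the 3 nearest profiles and the flanking features. Of the listed genes, 6 were matched through older symbols. One gene that the rule named is not reported here.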

Additional observations from a re-analysis of the deposited data

How the results depend on the processing

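Of 145 recomputed values, 107 were classed as unchanged. A fold change had to keep its direction and its side of the threshold, and a count of genes to stay within 1.5 times. The paralog ratio had to stay within the larger group SD, and the profile distances without the prior count were all classed as changed. Esrp1 (-7.85 to -7.63), Esrp2 (-1.42 to -1.26), Zeb1 (1.22 to 1.31) and the ratio of the paralogs were classed as unchanged in all settings tried. For Rbm47 and Rbfox2 the call was lost with no filter on low counts (log2 fold changes 0.31 and -0.33, adjusted p = 0.0897 and 0.0593 from edgeR), against a fold change of 1.5 (0.31 and -0.33), at an adjusted p threshold of 0.01 (0.31 and -0.33), and for Rbm47 alone with at least 10 counts in every sample (0.30, adjusted p = 0.0584 from edgeR). With each sample left out in turn they ranged from 0.26 to 0.35 and from -0.42 to -0.28. The replicate block gave 0.31 and -0.33 (adjusted p = 0.121 and 0.0955 from edgeR) and left Esrp1, Esrp2 and Zeb1 called. Among the named genes of the lists the block ended the calls of Raver1, Hnrnph1 and Ctnnd1 (adjusted p = 0.0813, 0.0995 and 0.0784 from edgeR), and 14 splicing regulators were called with it. Deviations of same-numbered samples from their group means had r between -0.126 and 0.195, the highest for the samples numbered 1. Of the 3 393P_vector samples, 1 correlated best with its own number. Deviations from means of 3 samples cannot exclude a shared batch. The reported fit has no block because the labels do not say that equal numbers share anything.

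The numbers of genes higher and lower in 393P_ZEB1 cells, 2539 and 2679, became 3977 and 4094 with limma voom, 1081 and 1118 against a fold change of 1.5, and 1584 and 1545 at a threshold of 0.01, and ranged from 1861 to 3700 and from 1784 to 3776 with a sample left out. The 17 splicing regulators called became 33, 5 and 8 in the same 3 settings and 10 to 28 with a sample left out, and the 6 switching genes became 13 and 2 in the first 2 and 4 to 13. The cause was not tested. Depth limits Esrp1 in 393P_ZEB1 cells, where 21 to 25 counts leave a counting error of at least 20.0%.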
